A study of Mus musculus with 4 samples.

Results

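The nuclear-encoded respiratory chain genes were taken by name as all rows whose symbol begins with Nduf, Sdha to Sdhd, Uqcr, Atp5 or Cox4 to Cox8, without pseudogene rows marked -ps. This rule found 93 of 17813 genes: 36 complex I subunits, 8 complex I assembly factors, 4 complex II subunits and 4 of its assembly factors, 8 complex III subunits, 16 complex IV subunits, 15 complex V subunits, the supercomplex factor Cox7a2l and the complex V factor Atp5s. Ndufa4 and Ndufa4l2 were counted with complex IV, where the Ndufa4 protein is now placed. Single-cell libraries came from liver tumour tissue of C57BL/6 mice aged 5 months, with 2 samples from Miz1F/F mice, whose Miz1 alleles are floxed, and 2 from Miz1Δhep mice. All mice received the carcinogen diethylnitrosamine (25 mg/kg) at week 2 and then weekly carbon tetrachloride (0.5 ml/kg). The labels give neither the Cre driver nor whether animals were pooled, and the deposited table does not tie its cells to samples. Its 24802 cells carry 4 barcode suffixes, called barcode sets 1 to 4 here, so cell classes were compared within each set and no genotype comparison or test was made.

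Sets 1 to 4 held 2574, 6224, 4825 and 11179 cells, with medians of 2648, 906, 1037 and 1859 UMIs (unique molecular identifiers, each counting 1 captured RNA molecule). Of the barcodes, 373 occurred with more than 1 suffix, in 748 cells. Zbtb17, the gene of Miz1, had 30 UMIs in hepatocyte-like cells, 7, 10, 2 and 11 in sets 1 to 4, too few to compare the sets. Cells were clustered without the 93 genes into 27 clusters, of which 25 were named into 17 classes from fixed marker lists. Alb, the main hepatocyte product, stood at 56737 CPM (UMIs per 1000000 UMIs) in hepatocyte-like cells, at 8912 CPM in Krt8/Sox9 epithelial cell-like cells and between 302 and 2067 CPM in the other classes. The part of free hepatocyte RNA in the levels below was not tested.

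Complexes I to IV of the inner mitochondrial membrane pass electrons from NADH and succinate to oxygen and pump protons, and complex V, the ATP synthase, uses the proton gradient to make ATP. Complex II is also an enzyme of the tricarboxylic acid cycle and pumps no protons. The subunits are made from 2 genomes: 13 are encoded by mitochondrial DNA, which are not analysed here, and the rest by nuclear genes, many of which carry binding sites for NRF-1 and for the ETS factor GABP in their promoters. Hepatocytes are rich in mitochondria, while mature red cells have none. Several complex IV subunits have a second, tissue-restricted form, such as the heart and skeletal muscle forms Cox6a2 and Cox7a1 and the testis form Cox6b2.

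The members are scattered over the genome: the 92 found in GENCODE vM21 on GRCm38 (mm10) lie on 19 chromosomes. RefSeq promoter windows (GRCm38.p6, 250 bases before to 50 after the start, 300 in all) were held for 76 members, with 81 windows. The NRF-1 motif, GCGCA and GCGC with 1 base of any kind between them, read on either strand, occurred in 27.2% of these windows, in 4.6% of all 32851 windows and in 11.9% of 4362 windows of other genes with a median over classes of at least 20 CPM. The ETS motif CCGGAAG occurred in 25.9%, against 8.86% of all windows and 20.1% of those of expressed genes, and the YY1 motif AAGATGGC in 12.3% against 2.75% and 5.43%. The CCAAT and TATAAA boxes were found in 42.0% and 8.64% of member windows, against 37.4% and 13.6% of all and 36.5% and 7.36% of those of expressed genes. The E box CACGTG occurred in 7.41% of member windows, against 7.15% of all and 11.0% of those of expressed genes. These motifs were searched on both strands without regard to overlap with each other, and a match is a run of letters, not a measured binding site. The 250 bases before the start are shown for 1 member of each complex, then for Cox6b1 and 2 class-restricted members, Cox6b2 and Cox7a1, with NRF-1 and ETS matches in capitals (CTTCCGG is CCGGAAG read on the other strand, and the match in Ndufa8 is also on that strand).
Ndufa8, chr2:36049339-36049588, minus strand: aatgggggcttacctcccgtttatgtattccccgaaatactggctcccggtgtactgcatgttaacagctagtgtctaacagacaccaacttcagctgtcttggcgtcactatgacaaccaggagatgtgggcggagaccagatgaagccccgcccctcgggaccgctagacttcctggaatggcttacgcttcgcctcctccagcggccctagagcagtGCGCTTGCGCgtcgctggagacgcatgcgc
Sdhd, chr9:50603850-50604099, minus strand: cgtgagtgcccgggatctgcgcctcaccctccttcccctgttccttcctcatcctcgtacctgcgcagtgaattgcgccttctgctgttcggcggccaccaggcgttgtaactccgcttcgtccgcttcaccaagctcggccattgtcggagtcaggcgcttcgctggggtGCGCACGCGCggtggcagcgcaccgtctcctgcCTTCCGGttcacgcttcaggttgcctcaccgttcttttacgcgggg
Uqcrh, chr4:116075071-116075320, minus strand: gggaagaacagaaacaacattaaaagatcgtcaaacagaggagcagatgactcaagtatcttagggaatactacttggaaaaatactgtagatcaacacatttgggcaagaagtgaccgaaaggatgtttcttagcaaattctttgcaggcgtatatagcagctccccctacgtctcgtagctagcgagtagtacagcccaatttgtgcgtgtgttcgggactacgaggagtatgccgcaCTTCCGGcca
Cox6a1, chr5:115348959-115349208, minus strand: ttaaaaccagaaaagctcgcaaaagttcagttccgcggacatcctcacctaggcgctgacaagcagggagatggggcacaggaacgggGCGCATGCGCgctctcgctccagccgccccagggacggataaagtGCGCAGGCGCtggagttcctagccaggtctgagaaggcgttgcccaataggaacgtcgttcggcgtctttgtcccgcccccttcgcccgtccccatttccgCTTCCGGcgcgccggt
Atp5h, chr11:115419920-115420169, minus strand: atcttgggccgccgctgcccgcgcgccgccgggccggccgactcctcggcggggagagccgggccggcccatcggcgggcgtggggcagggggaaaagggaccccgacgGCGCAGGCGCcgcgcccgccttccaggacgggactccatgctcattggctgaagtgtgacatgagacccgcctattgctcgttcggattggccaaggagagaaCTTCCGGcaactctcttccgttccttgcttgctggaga
Cox6b1, chr7:30626115-30626364, minus strand: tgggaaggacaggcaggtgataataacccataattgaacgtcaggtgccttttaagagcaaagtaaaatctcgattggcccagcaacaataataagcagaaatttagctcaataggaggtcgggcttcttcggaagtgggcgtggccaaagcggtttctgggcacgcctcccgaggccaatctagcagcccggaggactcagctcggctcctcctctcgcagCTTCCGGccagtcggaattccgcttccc
Cox6b2, chr7:4753095-4753344, minus strand: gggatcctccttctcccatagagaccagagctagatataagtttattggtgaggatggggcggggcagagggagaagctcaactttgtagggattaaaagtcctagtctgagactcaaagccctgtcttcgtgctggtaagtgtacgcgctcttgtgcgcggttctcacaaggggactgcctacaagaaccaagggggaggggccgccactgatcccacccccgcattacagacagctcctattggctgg
Cox7a1, chr7:30183921-30184170, plus strand: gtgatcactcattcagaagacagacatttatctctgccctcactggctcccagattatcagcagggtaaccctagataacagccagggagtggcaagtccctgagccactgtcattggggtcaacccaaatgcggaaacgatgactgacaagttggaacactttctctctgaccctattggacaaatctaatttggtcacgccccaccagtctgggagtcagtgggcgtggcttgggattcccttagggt
Cox6a1 holds 2 NRF-1 matches and 1 ETS match in the stretch shown, while the stretches of Cox6b2 and Cox7a1 hold neither motif, which says only that these letters are not there. Every other member shown holds an NRF-1 or ETS match, but these are examples and do not stand for all members. The same stretches of Atp5b, Atp5g1, Cox5a and Cox5b hold neither motif. The examples therefore do not set class-restricted members apart from the others. No promoter entry was held for Cox6a2 or Uqcrq.

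Together the 93 genes gave 1602232 UMIs, 2.43% of all listed UMIs. None of the 13 subunit genes of mitochondrial DNA was listed under its symbol, so the totals behind all CPM leave out their UMIs. The part of this in differences between classes was not tested. The level of a gene is its UMIs in a class and set over all UMIs of that class and set, in CPM, for sets with at least 20 cells of the class. Each UMI counts the 3′ end of 1 molecule, so levels of different genes were not divided by gene length. As medians over the 17 classes, the most abundant members were Cox4i1, the common form of complex IV subunit 4, at 1092 CPM, the complex III hinge protein gene Uqcrh at 992 CPM and the ATP synthase epsilon subunit gene Atp5e at 947 CPM. Cox7c and Cox8a, small complex IV subunits, stood at 899 and 815 CPM, and the ATP synthase genes Atp5l and Atp5h at 858 and 521 CPM. In complex III, Uqcr11 and Uqcrq, both small subunits, followed at 423 and 421 CPM. Complex I was led by the accessory subunit genes Ndufa2 (557 CPM), Ndufa6 (411 CPM) and Ndufa3 (332 CPM), whereas its 7 catalytic core genes lay lower, from 24.5 CPM for Ndufs1 to 101 CPM for Ndufs7.
Complex II genes stood below the leading genes of the other complexes, with 101 CPM for the iron-sulphur subunit gene Sdhb, 97.2 CPM for the flavoprotein gene Sdha and 62.7 CPM for the membrane anchor gene Sdhd. The complex I assembly factors, which help build the complex but are not part of it, were led by Ndufaf8 (83.5 CPM), Ndufaf4 (23.3 CPM) and Ndufaf2 (18.6 CPM). Ndufaf1, Ndufaf5, Ndufaf6, Sdhaf3, Cox4i2 and Atp5s were the 6 that reached 20 CPM in no class.

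The summed level of all 93 genes was highest in hepatocyte-like cells, with 40391, 40338, 40102 and 35728 CPM in sets 1 to 4 and a median of 40220 CPM. These cells ranked above every other class in all 4 sets. With cytosolic ribosomal protein genes left out of the totals, cycling cell-like cells came above them, at 51241 CPM in 1 set against a median of 47836 CPM. Cholangiocyte-like cells followed at 36933 and 31580 CPM in the 2 sets that held at least 20 of them, cycling cell-like cells at 30706 CPM in set 3 (54 cells) and Krt8/Sox9 epithelial cell-like cells at 29717 CPM (27521 to 31040). Stellate cell/fibroblast-like cells stood at 27648 CPM in 46 cells of set 3, and endothelial cell-like cells at 26575 CPM (23764 to 30293). Monocyte/macrophage-like cells (25113 CPM), plasmacytoid dendritic cell-like cells (25065 CPM), NK cell/ILC1-like cells (22489 CPM), Kupffer cell-like cells (22343 CPM), dendritic cell-like cells (22086 CPM), neutrophil-like cells (21311 CPM) and T cell-like cells (20769 CPM) formed a band in which each class overlapped its neighbours over the sets.
Plasma cell-like and B cell-like cells lay lower, with medians of 15794 CPM (12222 to 16889) and 15787 CPM (13986 to 19009). The low place of plasma cell-like cells was lost when the 50 highest other genes of each class were left out of its total: at 44960 CPM they then ranked below hepatocyte-like and cycling cell-like cells and above all other classes. Basophil/mast cell-like cells stood at 14271 CPM in 3 sets, and erythroid cell-like cells, with hemoglobin RNA among the 50 genes that took 80.9% of their UMIs, at 6874 CPM (4297 to 10888). Down this order, neighbouring classes overlapped except between cholangiocyte-like and cycling cell-like cells, between T cell-like and plasma cell-like cells, and between basophil/mast cell-like and erythroid cell-like cells. The highest class was 5.85 times the lowest, and 3.01 times (hepatocyte-like over basophil/mast cell-like) when the 50 highest other genes of each class were left out of its total.

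**Figure D1:**
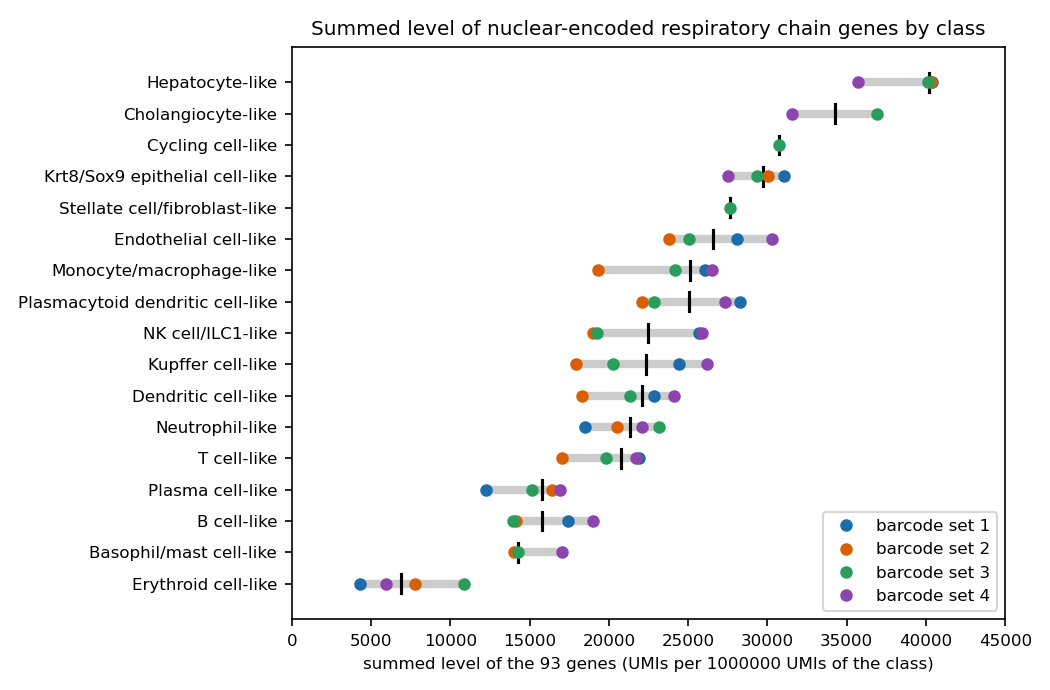
Summed level of the 93 genes (horizontal axis, CPM) in each class (rows), with 1 point per barcode set, a grey bar from the lowest to the highest set and a black tick at the median. Hepatocyte-like cells lie between 35728 and 40391 CPM and erythroid cell-like cells between 4297 and 10888 CPM.

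Across the 17 classes the summed level ran with that of other mitochondrial genes. As a description over classes that share libraries and clustering, Pearson's r was 0.97 with 78 mitochondrial ribosomal protein genes and 0.92 with 17 tricarboxylic acid cycle genes (0.96 and 0.89 without the 2 farthest classes, Spearman's rho 0.95 and 0.94). It was 0.62 with 17 regulators of mitochondrial biogenesis and 0.53 with 17 glycolysis genes, but 0.35 and 0.32 without the 2 farthest classes, so these rest on those classes (rho 0.56 and 0.39). It was 0.11 with the median UMIs per cell of the class (0.18 without the 2 farthest, rho 0.38). As another description, single members ran with the rest: over 79 members with a median of at least 20 CPM, the median r of a member with the sum of the others was 0.89, and it was above 0.8 for 62. The same r was not computed over all genes or without the farthest classes, so it does not set the members apart from other genes. The ATP synthase gene Atp5j (0.97) and Ndufa2 (0.97) lay at the top, and Cox7a2l (0.56), Ndufa1 (0.59) and Ndufs1 (0.61) at the bottom.

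**Figure D2:**
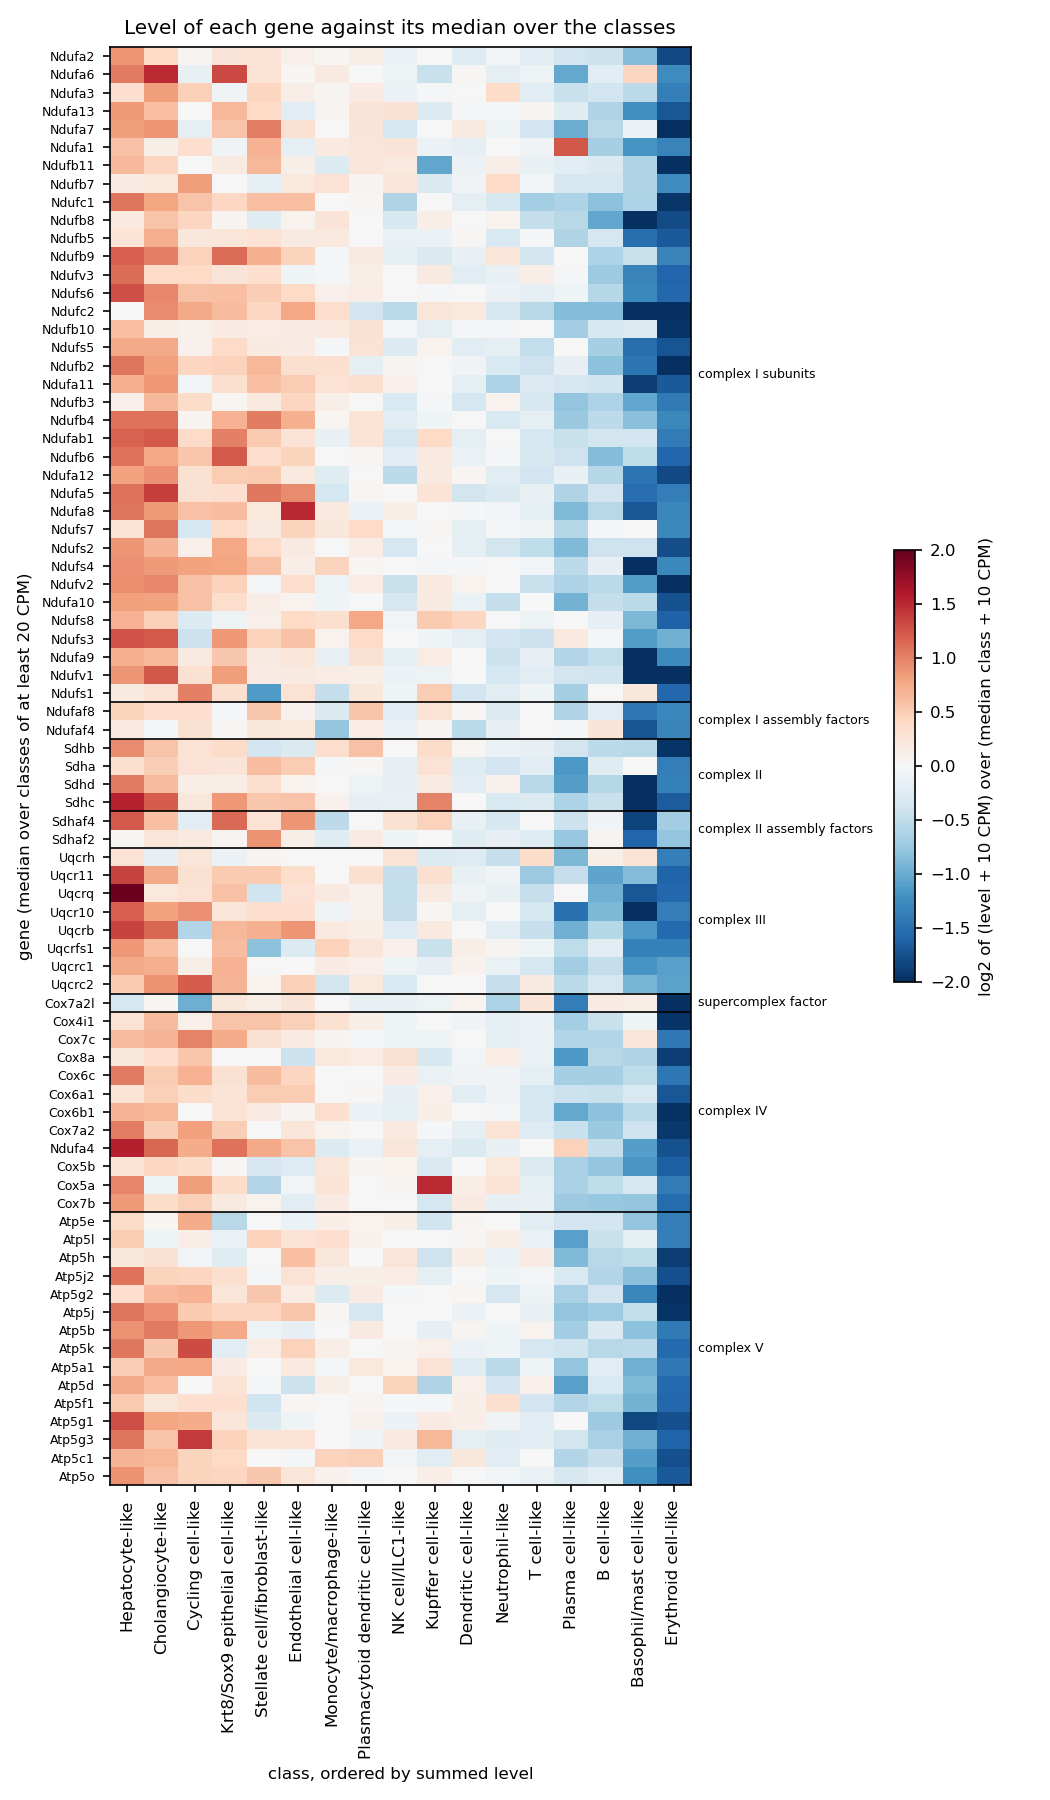
Level of each of 79 members (rows, grouped by complex) in each class (columns, in the order of the summed level), as the log2 of level + 10 CPM against the median class. Most rows run from red in hepatocyte-like cells to blue in erythroid cell-like cells, and single cells of the map stand out, such as Ndufa1 in plasma cell-like and Cox5a in Kupffer cell-like cells.

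Of the 87 members that reached 20 CPM in some class, 37 (42.5%) had their highest level in hepatocyte-like cells, against 7.21% of all 10719 genes that did so. For 22 of the 37 this held in every set. Cholangiocyte-like cells were highest for 22 members (25.3%, against 16.3% of all genes) and cycling cell-like cells for 11 (12.6%, against 11.4%), the latter in 1 set. Stellate cell/fibroblast-like cells were highest for 6 (against 12.8%), endothelial cell-like cells for 3, Ndufa8, Atp5h and Cox7a2l (13.4%), and plasmacytoid dendritic cell-like cells for 3, Cox6a2, Ndufaf8 and Ndufs8 (6.13%). Krt8/Sox9 epithelial cell-like cells were highest for Ndufb6 and Cox6b2 (4.08%), plasma cell-like cells for Ndufa1 (1.25%), T cell-like cells for Uqcrh (1.75%) and Kupffer cell-like cells for Cox5a (6.53%). No member was highest in any of the other 7 classes. A total of 4 members, Cox6a2, Cox6b2, Cox7a1 and Ndufa4l2, reached at least 4 times their median class, compared with 52.8% of all genes.

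The hepatocyte-like class was not uniform, and its rank rested on 1 of its 2 clusters. The cluster led by Fabp1, a fatty acid binding protein gene, held 521 cells with a median of 1110 UMIs and Alb at 10834 CPM, and the cluster led by Alb held 631 cells with a median of 3008 UMIs and Alb at 68517 CPM. The summed level was 63883, 64983 and 55213 CPM in the Fabp1 cluster in sets 1, 2 and 4, against 29639, 36287 and 29104 CPM in the Alb cluster, so the clusters did not overlap. The log2 ratio was 0.92 (0.84 to 1.11), and 0.68 with the 50 highest other genes out of the totals. This pair was chosen after its values were seen. At least 2-fold higher in all 3 sets were 10 of 84 members, against 1.42% of 4226 genes, and 0 were 2-fold lower, against 9.47%.
The 10 came from complexes I, IV and V and from an assembly factor, among them Cox7b (1019 against 373 CPM), Atp5k (1161 against 438 CPM) and Ndufc1 (769 against 320 CPM). The median log2 ratio was 1.01 over members and 0.22 over all genes. Mitochondrial ribosomal protein genes (1.02), tricarboxylic acid cycle genes (0.98), glycolysis genes (1.0) and cytosolic ribosomal protein genes (0.70) were higher in sum as well. With the Fabp1 cluster left out, the median of hepatocyte-like cells was 29639 CPM. It ranked behind the medians of cholangiocyte-like, cycling cell-like and Krt8/Sox9 epithelial cell-like cells, which rest on other sets. Within sets 1, 2 and 4, hepatocyte-like cells stood at 29639, 36287 and 29104 CPM. Krt8/Sox9 epithelial cell-like cells stood there at 31040, 30065 and 27521 CPM, above them in set 1 and below them in sets 2 and 4. Cycling cell-like cells were measured in set 3 only, where the Alb cluster was not. Hepatocyte-like cells without the Fabp1 cluster were highest for 14 of 87 members, against 6.24% of all genes. The difference in depth between the clusters moved with the result, and its part was not tested.

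**Figure D3:**
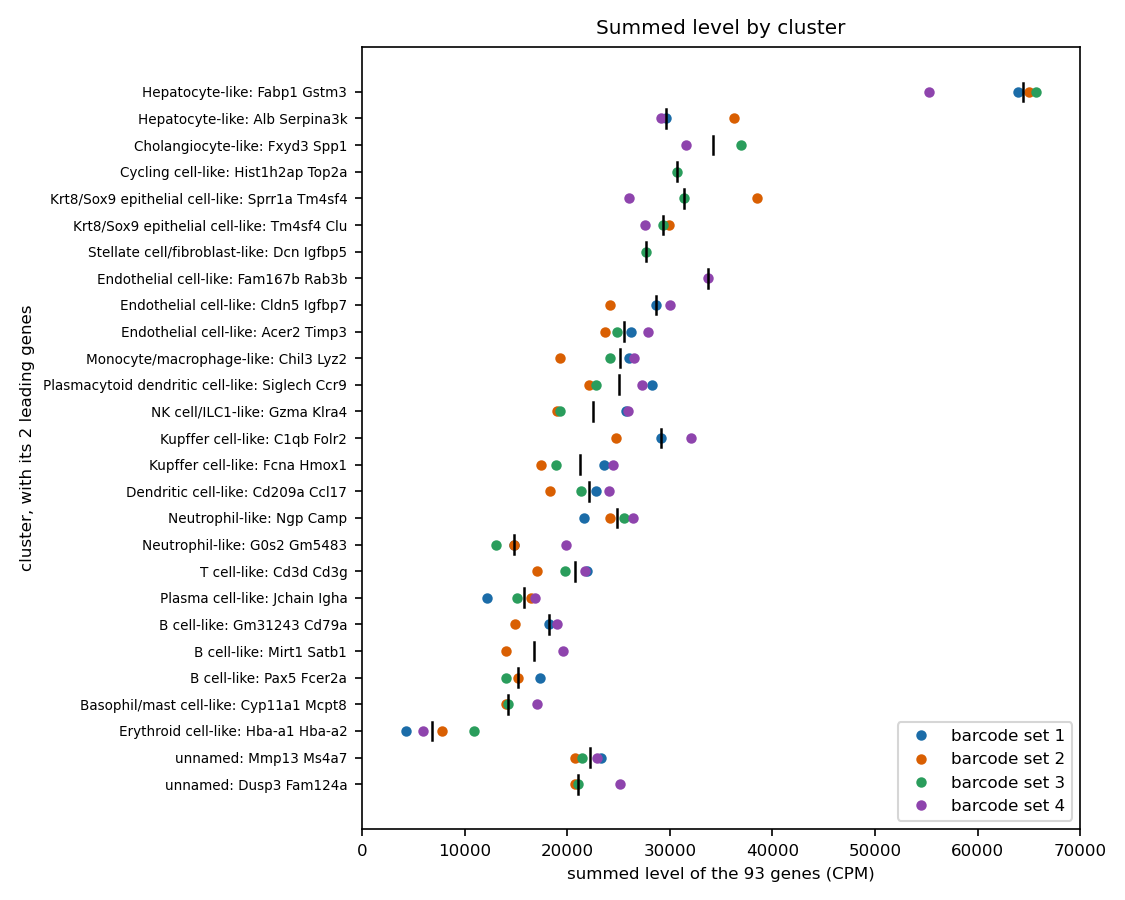
Summed level of the 93 genes (horizontal axis, CPM) in each of 27 clusters (rows, named by class and 2 leading genes), with 1 point per barcode set and a black tick at the median. The Fabp1 cluster lies between 55213 and 65651 CPM, above every other cluster.

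Neutrophil-like cells also split. The cluster led by Ngp, Camp, Ltf and Elane, granule genes of immature neutrophils, held 219 cells with a median of 4866 UMIs, and the cluster led by G0s2 held 1121 cells with a median of 946 UMIs. In sets 1 to 4 the summed level was 21652, 24203, 25543 and 26385 CPM in the Ngp cluster and 14843, 14833, 13092 and 19849 CPM in the G0s2 cluster, lower in every set. The log2 ratio of G0s2 over Ngp was -0.63 (-0.96 to -0.41). At least 2-fold lower were 6 of 77 members (Ndufa10, Ndufb5, Uqcrc1, Atp5b, Atp5g2 and Atp5o), against 6.08% of all genes, and 0 were 2-fold higher, against 8.69%. Atp5o, the subunit that joins the ATP synthase head to its stalk, had the lowest ratio, with 53.8 against 259 CPM, while Uqcrh was level at 709 and 712 CPM. Mitochondrial ribosomal protein genes were lower in sum by a log2 ratio of -0.47 and glycolysis genes by -0.09. This pair, too, was singled out after its values were seen, and depth moved with it and was not tested. Cycling markers moved with it as well: the 7 of the list, none at 0 in either cluster, summed to 1724 to 2624 CPM in the Ngp cluster and 14.2 to 95.8 CPM in the G0s2 cluster. Of the 219 cells, 115 fell in a cycling class when cells were clustered at resolution 2.0. Without them only 1 set still held at least 20 cells of the Ngp cluster, and the ratio there was 0.02, so the lower level of the G0s2 cluster was not seen without those 115 cells. The cycling class at resolution 2.0 includes a cluster of 188 cells led by Elane, Mpo and Prtn3, with Pclaf and Top2a also among its leading genes. Cycling and immature cells were therefore not told apart by leaving it out.
Between the Kupffer cell-like clusters led by C1qb and Fcna the summed log2 ratio was 0.39 (0.31 to 0.51, 3 sets), and 0.40 (0.31 to 0.56) without the 71 and 16 cells of these clusters that fell in a cycling class at resolution 2.0. The 7 cycling markers, none at 0 in either, summed to 78.0 to 1275 CPM in the C1qb cluster and 23.8 to 215 CPM in the Fcna cluster. Ndufa12 was at least 2-fold higher (224 against 101 CPM) of 80 members, against 0.306% of 5221 genes, and 0 lower, against 3.08%. The ratio was 0.17 between the endothelial cell-like clusters led by Fam167b and Cldn5, in 1 set, and 0.10 (-0.08 to 0.36) between the Krt8/Sox9 epithelial cell-like clusters led by Sprr1a and Tm4sf4.

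The sharpest departure from the common course was Cox6a2 in plasmacytoid dendritic cell-like cells. Cox6a2 (chromosome 7, 128205435 to 128206387, minus strand) encodes the heart and skeletal muscle form of complex IV subunit 6A, and Cox6a1 the form found in most tissues. Its level was 1116, 784, 1157 and 1541 CPM in sets 1 to 4 of these cells, a median of 1136 CPM. In the other classes the median lay between 0 and 14.1 CPM, and no set exceeded the 60.7 CPM of erythroid cell-like cells in set 1. Cox6a1 in the same cells stood at 655, 565, 641 and 677 CPM. Cox6a2 made up 66.6% of the Cox6a UMIs there (3183 of 4782, exact 95% interval 65.2% to 67.9%, counting error only), with 63.0%, 58.1%, 64.4% and 69.5% in sets 1 to 4. In erythroid cell-like cells the share was 14.1% (37 of 262 UMIs), from sets 1 and 4 only, and in NK cell/ILC1-like cells 3.31%.
The genes of most similar course over the 17 classes were Sh3bgr (r = 0.99), Siglech (0.98), a surface marker of plasmacytoid dendritic cells, and Klk1 (0.98). The last 2 are among the markers that named the class. Cox6a2 overlaps Itgad on the opposite strand, and its UMIs cannot be told apart from those of the partner if strand was not used in counting.

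**Figure D4:**
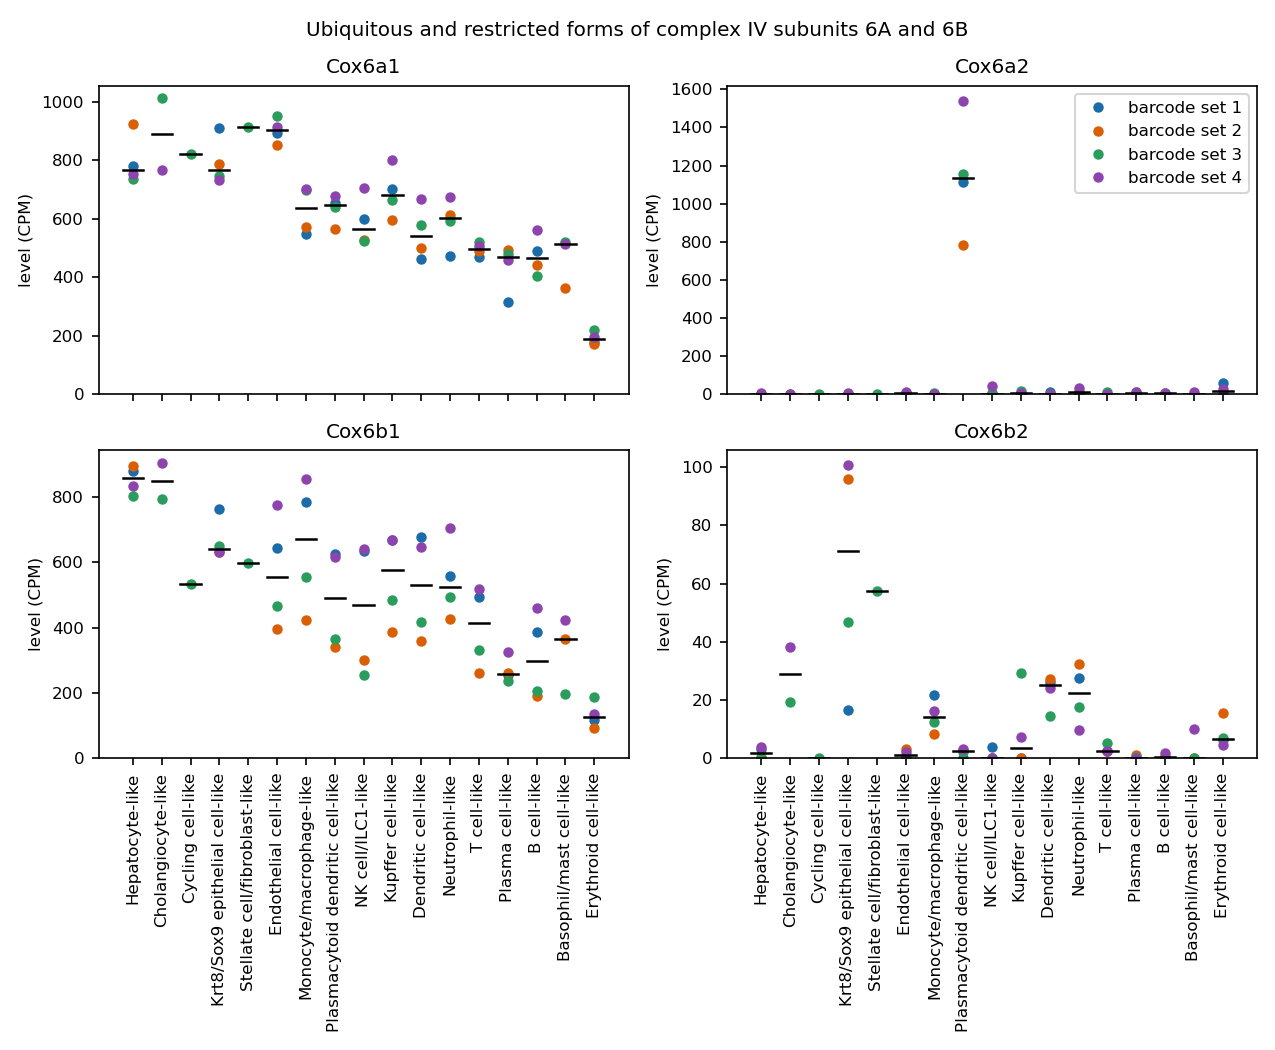
Level (CPM, vertical axes) of Cox6a1, Cox6a2, Cox6b1 and Cox6b2 in each class (horizontal axis), with 1 point per barcode set and a bar at the median. Cox6a2 stands at 784 to 1541 CPM in plasmacytoid dendritic cell-like cells and at or below 60.7 CPM elsewhere, while Cox6b2 reaches 101 CPM in Krt8/Sox9 epithelial cell-like cells.

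Cox6b2 (chromosome 7, 4751792 to 4753094, minus strand), the testis form of subunit 6B, was highest in Krt8/Sox9 epithelial cell-like cells. It stood there at 16.7, 95.8, 46.8 and 101 CPM in sets 1 to 4, the lowest from the 20 cells of set 1, and at 3.22, 0.53, 0 and 3.96 CPM in hepatocyte-like cells. Cox6b2 gave 11.4% of Cox6b UMIs in the epithelial class (527 of 4621, exact interval 10.5% to 12.4%) and 0.282% in hepatocyte-like cells. It was also found at 57.4 CPM in the single set of stellate cell/fibroblast-like cells (10 UMIs) and at 22.6 CPM in neutrophil-like and 25.3 CPM in dendritic cell-like cells. In cholangiocyte-like cells it gave 13 of 392 Cox6b UMIs, 3.32%. Plat, Plce1 and Met had the most similar course (r = 0.85, 0.84 and 0.83).
Cox7a1 (chromosome 7, 30184144 to 30186078, plus strand) was highest in cholangiocyte-like cells, at 110 and 72.4 CPM in 2 sets. It gave 38 of 320 Cox7a1 and Cox7a2 UMIs there, 11.9% (exact interval 8.54% to 15.9%), against 1.94% in Krt8/Sox9 epithelial cell-like and 1.5% in hepatocyte-like cells. Wdr35, Cxcl5 and Plekhb1 had the most similar course (r = 0.96 each). Ndufa4l2 (chromosome 10, 127514967 to 127517154, plus strand), a paralogue of Ndufa4 known to be induced by low oxygen, had 12 UMIs in all stellate cell/fibroblast-like cells. These were 7.10% of Ndufa4 and Ndufa4l2 UMIs. Its level of 40.2 CPM came from set 3 alone, where the share was 5.185%. Fibin, Col4a4 and Clic3 followed it (r = 1.0 each) in a class seen in 1 set. Ndufa4l2 overlaps Shmt2 on the opposite strand. Cox4i2, the lung form of subunit 4, had 56 UMIs in the whole table, and Cox8b was not analysed here.

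Atp5g1, Atp5g2 and Atp5g3 encode the same mature c subunit of the ATP synthase ring with different import sequences. In hepatocyte-like cells Atp5g1 gave 39.4% of their UMIs, Atp5g2 30.9% and Atp5g3 29.8%. Atp5g1 led in sets 1, 2 and 4 (50.05%, 34.9% and 40.5%), while Atp5g3 led in set 3 with 35.9%. In Krt8/Sox9 epithelial cell-like cells Atp5g2 led with 44.5%, though level with Atp5g1 in set 1, and in plasmacytoid dendritic cell-like cells with 48.7%. An Atp5g1 lead was not particular to hepatocyte-like cells. In plasma cell-like cells Atp5g1 gave 38.0% against 36.5% for Atp5g2, ahead in sets 1 and 4 and behind in sets 2 and 3.

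Shares of complexes in the members' summed level, as medians over sets, differed between classes as follows. Complex III took 15.7% in hepatocyte-like cells and 11.2% to 13.2% elsewhere. Complex V took 22.5% in Krt8/Sox9 epithelial cell-like cells, the lowest share, and 24.3% to 29.9% elsewhere. Complex I subunits took 31.2% in cholangiocyte-like cells and 24.1% in cycling cell-like cells. Complex II took 1.94% in Kupffer cell-like and 1.65% in hepatocyte-like cells, against 1.08% in plasma cell-like and 1.06% in basophil/mast cell-like cells. Relative to the summed level, a member was read as leaving the common course where its share was at least 1.5 times above or below its median class in every set, over 3 or more sets, as a description of the 79 members.
Cox5a, a matrix-side complex IV subunit, stood at 1123, 829, 633 and 1075 CPM in Kupffer cell-like cells, against 500, 289, 315 and 510 CPM in monocyte/macrophage-like cells. Sdhc (chromosome 1, 171127165 to 171150603, minus strand), a haem-binding anchor of complex II, stood at 104, 120, 177 and 106 CPM in Kupffer cell-like and at 75.7, 20.6, 49.4 and 61.6 CPM in monocyte/macrophage-like cells. In both genes every Kupffer cell-like set lay above every monocyte/macrophage-like set. Ndufa8, a complex I subunit on the intermembrane side, was highest in endothelial cell-like cells with 489, 173, 254 and 365 CPM, a median of 310 CPM that overlaps the 192 to 238 CPM of hepatocyte-like cells.
In Krt8/Sox9 epithelial cell-like cells the shares of Ndufa6 (1041 CPM) and Sdhaf4 (69.2 CPM) were higher and that of Atp5e (643 CPM) lower. In plasma cell-like cells those of Ndufa1 (589 CPM) and Ndufa4 (600 CPM) were higher and that of Sdha (38.6 CPM) lower. Ndufaf4, an assembly factor, was higher in share in B cell-like cells (29.7 CPM), Ndufc2 in endothelial cell-like cells (297 CPM), and Uqcrq and Sdhc in hepatocyte-like cells. In basophil/mast cell-like cells, 139 in all, the shares of Ndufa5 (30.2 CPM), Ndufa8 (24.3 CPM), Ndufb8 (32.6 CPM), Ndufc2 (32.6 CPM) and Ndufv1 (median 0) were lower.

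In 7 pairs of classes fixed for comparison, 5 of the 93 members differed at least 2-fold in 1 direction in every set of some pair. All genes were not counted over the 7 pairs together, so this count has no share beside it and is not read as a result. Ratios of single genes are on level + 10 CPM, and genes under a mean of 20 CPM over the pair were left out. Hepatocyte-like over endothelial cell-like cells gave a summed log2 ratio of 0.60 (0.24 to 0.76 over 4 sets), and 0.93 with the 50 highest other genes out. Of 82 members, 1 was at least 2-fold higher, against 10.2% of 5977 genes, and 0 were lower, against 22.9%. Higher in every set by any amount were 51 members (62.2%, against 19.7% of all genes) and lower 4 (4.88%, against 57.2%), and the median log2 ratio was 0.58 over members and -0.68 over all genes.
The member past 2-fold was Uqcrq (chromosome 11, 53427922 to 53430831, minus strand), with 2256, 1586, 1419 and 1763 CPM in hepatocyte-like and 625, 338, 403 and 852 CPM in endothelial cell-like cells, a log2 ratio of 1.81 (1.04 to 2.20). Within hepatocyte-like cells, Uqcrq was at 1533, 1400 and 1364 CPM in the Alb cluster in sets 1, 2 and 4, still above every endothelial cell-like set. Atp5g1 followed with 632 against 239 CPM. Ndufc2 (169 against 297 CPM) and Cox7a2l (361 against 551 CPM) had the lowest ratios, -0.78 and -0.62. The endothelial cell-like class was held mostly by the cluster led by Acer2 in sets 2 and 3 and by that led by Cldn5 in sets 1 and 4. With the median of all genes set to 0 in each set, 20 members were 2-fold higher and 0 lower. All genes were not counted after this shift, here or in the other pairs, so these counts have no share beside them. Without the Fabp1 cluster the summed log2 ratio was 0.08 (-0.06 to 0.61, 3 sets), no member was 2-fold higher, and the median was 0.04 over members and -0.68 over all genes.

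**Figure D5:**
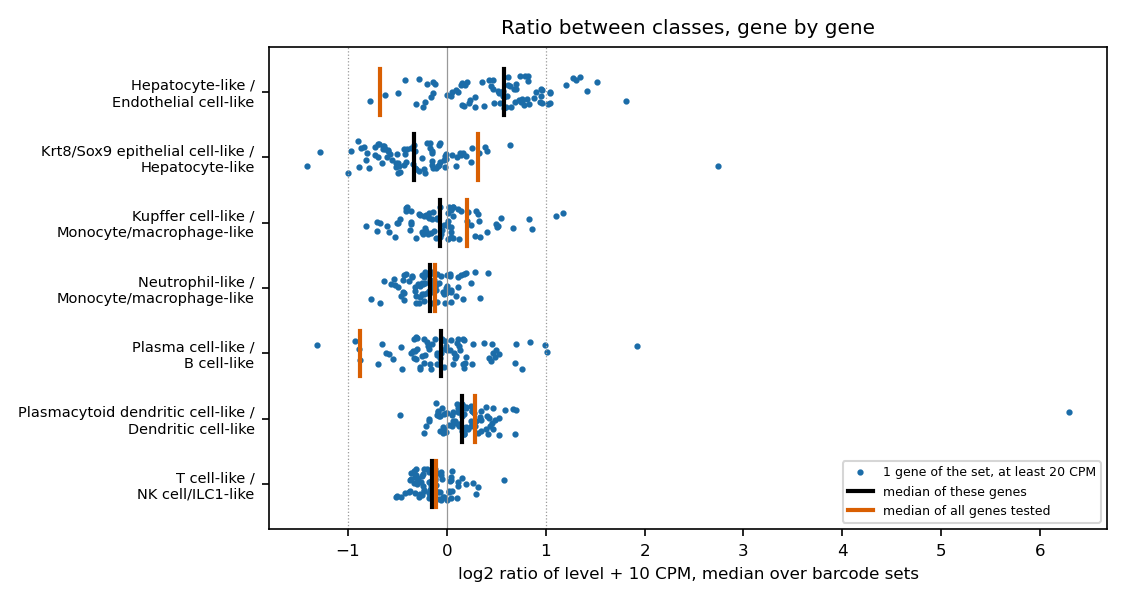
Log2 ratio of level + 10 CPM (horizontal axis, median over barcode sets) for each member in 7 pairs of classes (rows), with black ticks at the members' median, orange ticks at the median of all genes tested, and dotted lines at 2-fold. Cox6a2, at 6.29 in plasmacytoid dendritic cell-like over dendritic cell-like cells, lies farthest from 0.

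Krt8/Sox9 epithelial cell-like cells stood below hepatocyte-like cells by a summed log2 ratio of -0.40 (-0.45 to -0.38), with 20 cells in set 1. Of 81 members, Cox6b2 was at least 2-fold higher (log2 ratio 2.75, against 5.5% of 5072 genes called higher) and Uqcrq at least 2-fold lower (-1.41, 639 against 1674 CPM, against 4% called lower). Lower in every set were 49 members (60.5%, against 16.7% of all genes) and higher 6 (against 44.8%). With the median of all genes set to 0, 0 were 2-fold higher and 6 lower (not counted over all genes). Ndufc2 was the next highest at 0.63, and Atp5k, ATP synthase subunit e, the next lowest at -1.28. The summed log2 ratio was -0.60 for complex V, -0.78 for complex III and -0.27 for complex I subunits, while cytosolic ribosomal protein genes were higher by 0.37. Without the Fabp1 cluster the summed ratio was -0.08 (-0.27 to 0.07, 3 sets), Cox6b2 was called higher and no member lower.

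Kupffer cell-like over monocyte/macrophage-like cells gave a summed log2 ratio of -0.10 (-0.26 to -0.02), or -0.24 without cytosolic ribosomal protein genes in the totals. The monocyte/macrophage-like class was the cluster led by Chil3, Lyz2 and F13a1, with Ccr2 among its leading genes. The cluster with Gpnmb and Trem2 among its leading genes stayed unnamed and lay outside this class. Of 77 members, 0 passed 2-fold, against 5.99% of 5240 genes called higher and 3.03% lower. Higher in every set by any amount were 12 members (15.6%, against 34.2%) and lower 24 (31.2%, against 16.4%). Sdhc (1.17) and Cox5a (1.11) had the highest ratios, short of 2-fold in at least 1 set. Uqcrfs1, the Rieske iron-sulphur protein gene (98.7 against 194 CPM), and Atp5c1, the gamma subunit gene (190 against 309 CPM), had the lowest. Glycolysis genes were lower in sum by -0.78 in Kupffer cell-like cells, and Eno1 and Slc16a3 of 15 passed 2-fold.
Neutrophil-like over monocyte/macrophage-like cells gave -0.16 (-0.49 to 0.09), with 0 of 77 members past 2-fold in either direction, against 2.8% higher and 2.95% lower of 4719 genes. By any amount, 1 was higher in every set (against 15.9%) and 19 lower (24.7%, against 28.8%). Ndufa11 (-0.77) and Ndufa9 (-0.67) had the lowest ratios and Ndufb11 (0.41) and Ndufaf3 (0.33) the highest. With the G0s2 cluster alone, as the neutrophil-like class without the Ngp cluster, the summed ratio was -0.61 (-0.88 to -0.38). It was -0.58 and -0.59 when cells were clustered at Leiden resolutions 0.5 and 2.0.

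Plasma cells arise from B cells and devote most of their RNA to antibodies. The summed log2 ratio of plasma cell-like over B cell-like cells was -0.03 (-0.51 to 0.22), while the median gene of 3846 had -0.88 and the median member -0.06. The 50 highest other genes took 65.3% of UMIs in plasma cell-like and 38.2% in B cell-like cells, and with these out the summed ratio was 0.75 (0.56 to 0.99). The B cell-like class was held mostly by clusters led by Pax5 in sets 1 and 3, by Gm31243 in set 4 and by Mirt1 in set 2. Of 78 members, Ndufa1 was at least 2-fold higher, against 3.2% of all genes, and Cox7a2l at least 2-fold lower, against 24.7%. By any amount, 13 were higher in every set (16.7%, against 10.2%) and 18 lower (23.1%, against 72.5%). With the median of all genes set to 0, 10 were 2-fold higher and 0 lower, and 68 higher and 2 lower in every set (not counted over all genes).
Ndufa1 (chromosome X, 37187588 to 37191163, minus strand), an accessory subunit needed for complex I assembly, stood at 564, 615, 613 and 516 CPM in plasma cell-like and 155, 121, 142 and 167 CPM in B cell-like cells, a log2 ratio of 1.92 (1.57 to 2.25). The supercomplex factor gene Cox7a2l stood at 127, 180, 160 and 240 against 674, 388, 393 and 646 CPM, a log2 ratio of -1.32 (-2.32 to -1.06). Neither gene overlapped between the classes. Atp5g1 was the next highest (1.01) and Uqcrh the next lowest (-0.93). Tricarboxylic acid cycle genes were lower in sum by -0.60 and regulators of mitochondrial biogenesis by -1.44.

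Plasmacytoid dendritic cell-like over dendritic cell-like cells gave a summed log2 ratio of 0.23 (0.10 to 0.31), and 1 of 80 members, Cox6a2 (log2 ratio 6.29, 5.64 to 6.89), passed 2-fold upwards and 0 downwards, against 7.96% and 4.56% of 4975 genes. Ndufs3 was next at 0.70, and Ndufc2 (-0.48) and Sdhc (-0.23) lay lowest. Higher in every set were 34 members (42.5%, against 46.1%) and lower 3 (3.75%, against 17.7%). With the median of all genes set to 0, 5 were higher and 25 lower in every set (not counted over all genes). The median was 0.16 over members and 0.28 over all genes.
T cell-like over NK cell/ILC1-like cells gave -0.19 (-0.25 to 0.04), with 0 of 78 members past 2-fold, against 0.841% higher and 1.48% lower of 4873 genes. By any amount, 2 were higher in every set (2.56%, against 10.8%) and 17 lower (21.8%, against 23.5%). Uqcrc2, a complex III core protein gene (0.57), and Ndufv2 (0.31) had the highest and Ndufb7 (-0.52) and Cox7a2 (-0.50) the lowest ratios, and the medians over members and all genes were -0.15 and -0.11. With cytosolic ribosomal protein genes left out of the totals, the summed ratio was 0.0066.

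Genes of the same machinery outside the name rule were read from lists. Of 16 further subunits and carriers, Etfa and Etfb, which feed electrons from fatty acid oxidation, were at least 2-fold higher and Slc25a4, the ADP/ATP carrier, was lower in hepatocyte-like over endothelial cell-like cells among 14 tested. Of 31 further assembly factors, 14 were tested there and Coa7 was called higher. Suclg1 of 17 tricarboxylic acid cycle genes was called higher, and Mrpl16 of 71 mitochondrial ribosomal protein genes. Glycolysis was mixed in the same pair, with Tpi1 called higher and Hk1, Pfkl and Pkm lower of 11. Over all genes of this pair 10.2% were called higher and 22.9% lower, so these small counts are not read as a result about the lists. The calls include the Fabp1 cluster in the hepatocyte-like class. In Kupffer cell-like over monocyte/macrophage-like cells, Lrpprc, which stabilises mitochondrial messenger RNA, was called higher among 13 further assembly factors, against 5.99% of all genes.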

How the data were processed

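Single-cell 3′ libraries of 4 samples were read from a table of natural log values deposited by the authors. The submitters' processing notes name CASAVA 1.8, Cell Ranger, Seurat and the mm10 build, and no cell or gene filter. The deposited values, once exponentiated and less 1, sum to 10000 in a cell, and 100% of those above 0 are whole multiples of that cell's lowest (tolerance 0.001), so they are natural logs of scaled UMIs plus 1. Whole UMIs were computed from them, 65920312 over 24802 cells, from 9093921 to 35033778 per barcode set. No cell had fewer than 201 genes. No count model was fitted, since no column ties cells to samples, and the spread over sets may be technical.

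Clusters came from scanpy 1.11.5 (python-igraph 0.11.9, scikit-learn 1.9.0) on 2000 variable genes without the 93 members, 30 principal components, 15 neighbours and Leiden resolution 1.0 with seed 1. They were named from 17 marker lists. A cluster took the name of the list of highest mean fold over other cells, if that mean was at least 2-fold, at least 3 of its markers were above the rest and no other list had more genes among the 10 leading ones. By these rules 2 clusters stayed unnamed. No doublet caller was run and no cell removed. The alternatives were another denominator, cell filter, clustering, pseudocount, filter and scale, and each barcode set left out. A gene was called when at least 2-fold different, on level + 10 CPM, in 1 direction in every set in which both classes had 20 cells or more, among genes with a mean of 20 CPM. On simulated UMIs this rule called 84% of genes changed 2.83-fold and 98% of those changed 4-fold in the hepatocyte-like and endothelial cell-like pair (6324 genes past the filter), and 0 unchanged genes. The simulated sets shared a common profile and held counting error only, and the changed genes were drawn from those at 100 CPM or more. These figures therefore do not cover variation between sets, or changed genes between 20 and 100 CPM. Intervals are exact and cover counting error only.

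The genes named are the 3 of the highest level per complex, those at least 4 times their median class, the 2 highest and 2 lowest ratios per pair, paralogue families, and the 3 genes most like each class-restricted member. Members that leave the common course, members of the cluster pairs and those pairs themselves were chosen after their values were seen. The members and lists were chosen with earlier results of these data known. Symbols were matched to GENCODE vM21 for positions. Members that overlap other genes or have processed pseudogenes may share reads with them, for example Ndufa13 with Yjefn3 and Cox4i1 with Emc8. Calculations used Python 3.11.15, numpy 2.4.6, scipy 1.17.1 and matplotlib 3.10.9.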

Additional observations from a re-analysis of the deposited data

How the results depend on the processing

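No paired analysis was possible because the columns carry no sample or replicate numbers to match the groups by. Classes were compared within each barcode set. The ratio of the highest to the lowest class was 3.01 without the 50 highest other genes of each class in the total, and 5.15 to 6.77 with each barcode set left out. By setting, the summed log2 ratios that moved by more than 1 SD over sets were as follows. With the median of all tested genes set to 0, they were 1.34 (hepatocyte-like over endothelial cell-like), -0.76 (Krt8/Sox9 epithelial cell-like over hepatocyte-like), -0.33 (Kupffer cell-like over monocyte/macrophage-like), 0.80 (plasma cell-like over B cell-like) and -0.052 (plasmacytoid dendritic cell-like over dendritic cell-like), the last 2 of the other sign. Without the 50 highest other genes they were 0.93, -0.63, 0.75 (other sign) and 0.056 for the first, second, plasma cell-like and plasmacytoid pairs, and -0.054 for T cell-like over NK cell/ILC1-like. Without cytosolic ribosomal protein genes in the total they were -0.30 for the epithelial, -0.24 for the Kupffer cell-like, -0.46 for the plasma cell-like, 0.12 for the plasmacytoid and 0.0066 (other sign) for the T cell-like pair. With the mean of each cell's share, the epithelial pair gave -0.60 and neutrophil-like over monocyte/macrophage-like cells -0.44. Without the 2% of cells with the most UMIs the epithelial pair gave -0.51. The neutrophil-like pair gave -0.58 and -0.59 at resolutions 0.5 and 2.0, and -0.63 with members kept among the clustering genes. The next alternatives were added after seeing the data. Without the Fabp1 cluster the hepatocyte-like over endothelial cell-like ratio was 0.077 and the epithelial ratio -0.081, and without the Ngp cluster the neutrophil-like ratio was -0.61. Without cells of a cycling class at resolution 2.0, the G0s2 over Ngp ratio was 0.021 (other sign, 1 set). The cause of these shifts was not tested.

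With each barcode set left out, the ratios ran from 0.52 to 0.68, from -0.42 to -0.38, from -0.11 to -0.09, from -0.26 to -0.06, from -0.17 to 0.12 (plasma cell-like, 0.12 without set 1 or set 4), from 0.18 to 0.27 and from -0.23 to -0.16 in the order of the 7 pairs. Some counts of members past 2-fold moved by over 1.5 times, and they are given without the share of all genes under the same setting. With the mean of each cell's share they were 4 higher in the hepatocyte-like, 5 lower in the epithelial, 1 higher in the Kupffer cell-like and 0 lower in the plasma cell-like pair. Without the 50 highest other genes they were 6 higher, 5 lower, and 9 higher with 0 lower in the hepatocyte-like, epithelial and plasma cell-like pairs. A filter at 100 CPM left 0 higher in the epithelial pair, no filter gave 1 lower in the plasmacytoid pair, and a pseudocount of 1 CPM gave 1 higher in the Kupffer cell-like pair. Few UMIs limit the values of small classes, where a count of 0 allows up to 3 UMIs. The order of classes had a Spearman's rho with the one reported of 0.75 without the 50 highest other genes, 0.87 without ribosomal protein genes and 0.97 to 0.99 under the other settings.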

Other observations

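Some members differed between barcode sets in the same way in class after class. Relative to the summed level, Sdhb, Ndufs7, Ndufa13, Atp5d and Uqcrq were higher in both sets 1 and 4 than in both sets 2 and 3 in 13 of 13 classes seen in all sets, 6.33% of 79 members, against 0.815% of 4292 genes by the same measure. Uqcrh, Atp5l and Cox6c were lower in sets 1 and 4 in 13 of 13, 3.8% of members against 1.12% of genes. In 12 of 13 classes 4 further members of the 79 were higher and 5 lower, against 59 and 181 of 4292 genes. The count of 5 lower is not read as a result about the members. These members were picked out after their values were seen. For Sdhb, the median over classes of the log2 share against the median of the sets was 0.57, -0.40, -0.46 and 0.38 in sets 1 to 4, and for Uqcrh -0.38, 0.51, 0.36 and -0.45. The abundant Cox4i1 ran from -0.07 to 0.12. The sets also differ in median UMIs per cell (2648 and 1859 in sets 1 and 4, 906 and 1037 in sets 2 and 3), nothing ties the sets to a genotype or batch, and the part of either was not tested.

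Both unnamed clusters lay within the band of the immune classes: the cluster led by Mmp13, Ms4a7 and Gpnmb (692 cells) at 22189 CPM and the cluster led by Dusp3, Fam124a, Gatm and Kdr (414 cells) at 21064 CPM in summed level.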
